A study of Mus musculus with 6 samples.

Results

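The 10 genes described here are expressed mainly in atrial myocytes, in the conduction system or as natriuretic peptide hormones of the heart, and they were Nppa, Nppb, Myl4, Myl7, Sln, Bmp10, Dkk3, Gja5, Hcn4 and Stard10. They were taken by gene symbol from a table of 45777 genes and were selected on their levels over all 6 libraries, since the list was drawn up with results of the same libraries in view. The levels of the members are therefore given as a description, and where a fit over all genes is quoted it is no test of the members. All 10 reached a mean of 10 counts and so were among the 18328 genes analysed, but Bmp10 and Sln passed only through the libraries in which they were high. The question behind the list was whether Nppa and Nppb varied in the manner of stress genes of the ventricle or together with the genes of atrial tissue.

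RNA was sequenced from the hearts of female BALB/c nude mice (CAnN.Cg-Foxn1nu/Crl) that entered the study at 6 weeks of age, a strain that lacks a thymus and so accepts human tumour cells. Every group, Control included, had been injected under the skin with MDA-MB-231 cells, a human breast cancer line, at day 0 and was treated from day 7 over 3 weeks. The groups were Control (no Rh2 and no Dox), ginsenoside Rh2 at 20 mg/kg (Rh2-20) or 30 mg/kg (Rh2-30) every day, doxorubicin (Dox) at 2 mg/kg every other day to a cumulative 22 mg/kg, and both agents at either Rh2 dose (Rh2-20 + Dox, Rh2-30 + Dox). Ginsenoside Rh2 is a saponin of ginseng, and doxorubicin is an anthracycline used against tumours that is toxic to the heart. Each group was 1 library, pooled from the hearts of 5 mice, so no difference between single conditions has a replicate check. Library totals lay between 86164411 and 90621002 counts.

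The atria and the ventricles of the heart use different copies of several contractile and calcium-handling genes. Atrial myocytes carry the light chains MYL7 and MYL4 and the calcium pump inhibitor sarcolipin, while ventricular myocytes carry MYL2, MYL3 and phospholamban. ANP, the hormone from Nppa, is stored in granules of atrial myocytes in the healthy adult, and BNP, the hormone from Nppb, is made in atrium and ventricle. Both hormone genes are known to rise in the ventricle under overload or injury, for which reason they are widely used as stress markers. How much of the atria, of the great vessels and of the fat around them goes into a heart sample depends on how it is cut, and how these hearts were cut is not given in the sources used here.

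All 6 heart markers (Myh6, Ttn, Tnnt2, Tnni3, Actc1 and Ryr2) were present in each library, with a summed level of 3894 to 5114 FPKM (fragments per kilobase of transcript, scaled by library size). The Rh2-30 library stood apart from the others in markers of tissues near the atria. The 5 fat markers summed to 73.1 FPKM there and to between 0.126 and 7.35 FPKM elsewhere. Ucp1, the uncoupling protein of brown fat, had 6442 counts in Rh2-30 and at most 12 in any other library. The 6 cardiac ganglion markers summed to 3.69 FPKM in this library and to at most 0.397 FPKM in the others. The synaptic gene Snap25 had 283 counts in Rh2-30 and 0 in each other library, where a count of 0 allows up to 3. Comparisons that use this library are therefore given beside those that do not.

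The promoters of 3 members are shown: those of the hormone genes Nppa and Nppb, whose levels differed in pattern although the genes lie side by side on chromosome 4 with 13.5 kb between the end of Nppb and the start of Nppa, and that of the atrial light chain gene Myl7. Each is the 250 bases before the transcription start in RefSeq (GRCm38.p6), written 5′ to 3′ on the strand of the gene. Capitals mark every match on either strand to GATAA (GATA factors), AAGTG (NK2 homeobox factors), AGGTGT (T-box factors) or CATTCC (the MCAT site of TEAD factors). A window existed for 8 members, the other two being Dkk3 and Sln. The Nppb window lies partly inside the span that RefSeq gives for the gene, chr4:147985786-147987205. That of Myl4, chr11:104550413-104550662, lies wholly inside the span of its gene, chr11:104546017-104587215.
Nppa, chr4:148000472-148000721, plus strand: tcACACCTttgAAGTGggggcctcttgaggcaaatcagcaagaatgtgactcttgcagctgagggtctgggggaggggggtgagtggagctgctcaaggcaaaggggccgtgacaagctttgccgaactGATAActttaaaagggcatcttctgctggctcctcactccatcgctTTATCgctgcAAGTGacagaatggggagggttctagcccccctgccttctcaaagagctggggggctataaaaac
Nppb, chr4:147985650-147985899, plus strand: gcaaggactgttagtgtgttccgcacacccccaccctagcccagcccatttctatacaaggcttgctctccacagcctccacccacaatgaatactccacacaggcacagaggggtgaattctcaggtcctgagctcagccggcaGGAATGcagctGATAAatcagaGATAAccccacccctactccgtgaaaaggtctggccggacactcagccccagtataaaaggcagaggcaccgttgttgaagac
Myl7, chr11:5898783-5899032, minus strand: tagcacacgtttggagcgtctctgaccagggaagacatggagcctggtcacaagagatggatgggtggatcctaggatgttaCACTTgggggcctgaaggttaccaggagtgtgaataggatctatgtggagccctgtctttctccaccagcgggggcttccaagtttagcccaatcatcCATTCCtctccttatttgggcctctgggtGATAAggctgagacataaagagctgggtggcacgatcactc

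The letters GATAA stood in 5 of the 8 windows (Nppa, Nppb, Myl7, Bmp10 and Stard10) and in 22.6% of the windows of all 32851 transcription starts in the table. AAGTG was in 4 (Nppa, Myl7, Myl4 and Gja5), against 40.7% of all windows. CATTCC was in 3 (Nppb, Myl7 and Stard10), against 12.6%, and AGGTGT in 2 (Nppa and Hcn4), against 11.8%. Neither AGGTCA, a site of nuclear receptors, nor the MEF2-like CTANNNNTA was in any of the 8 windows, against 14% and 19% of all windows. Nppa and Nppb shared GATAA, of which each window held a pair, while AAGTG and AGGTGT were in the Nppa window and CATTCC in that of Nppb. No pair of these 6 motifs overlapped in the 3 sequences shown. These are matches of letters and do not show that a factor was bound. Of the 9 cardiac transcription factor genes analysed, Gata4 had 1548 to 1986 counts and Gata6 4359 to 5129 over the 6 libraries, and Hand2 in Dox, at 1245 counts against 2819, was alone in being at least 2-fold from Control.

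Nppa, the gene of the precursor of ANP, lies at chr4:148000722-148002074. Its level was 37.3 FPKM in Control, 32.7 in Rh2-20, 566 in Rh2-30, 169 in Dox, 164 in Rh2-20 + Dox and 63.2 in Rh2-30 + Dox. Rh2-30 was highest, Dox and Rh2-20 + Dox lay together below it, and the other 3 libraries were lowest. Neighbours in this order that lay close to each other were Dox and Rh2-20 + Dox, and Control and Rh2-20. On TMM-normalised counts the log2 ratio of Nppa to Control was 2.16 in Dox, which is 4.46-fold. A 95% interval of this ratio ran from 1.48 to 2.83. It adds to the counting error 1 dispersion common to all genes, estimated over the 6 libraries. It is called the dispersion interval from here on. For Rh2-20 + Dox the log2 ratio was 2.07 (dispersion interval 1.39 to 2.74). Rh2-30 stood at 3.78 (3.10 to 4.45), which is 13.7-fold. In Rh2-20 it was -0.26, with an interval of -0.94 to 0.42 that includes 0.

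Nppb, the gene of the precursor of BNP, varied far less. It was at 41.0 FPKM in Control, 24.5 in Rh2-20, 41.3 in Rh2-30, 29.3 in Dox, 33.9 in Rh2-20 + Dox and 42.7 in Rh2-30 + Dox. The highest level was 1.74 times the lowest for Nppb and 17.3 times the lowest for Nppa. The libraries in which Nppa was 4-fold and more above Control were not high in Nppb, which had log2 ratios to Control of -0.29 in Dox, -0.23 in Rh2-20 + Dox and -0.11 in Rh2-30. Each of these has a dispersion interval that includes 0. The exception was Rh2-20, the library lowest in Nppb, at -0.81 (-1.49 to -0.13). The value was 0.13 in Rh2-30 + Dox. Among the 6 levels of Nppb in order, no neighbours differed by as much as a dispersion interval reaches to either side, 0.67 on the log2 scale.

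**Figure D1:**
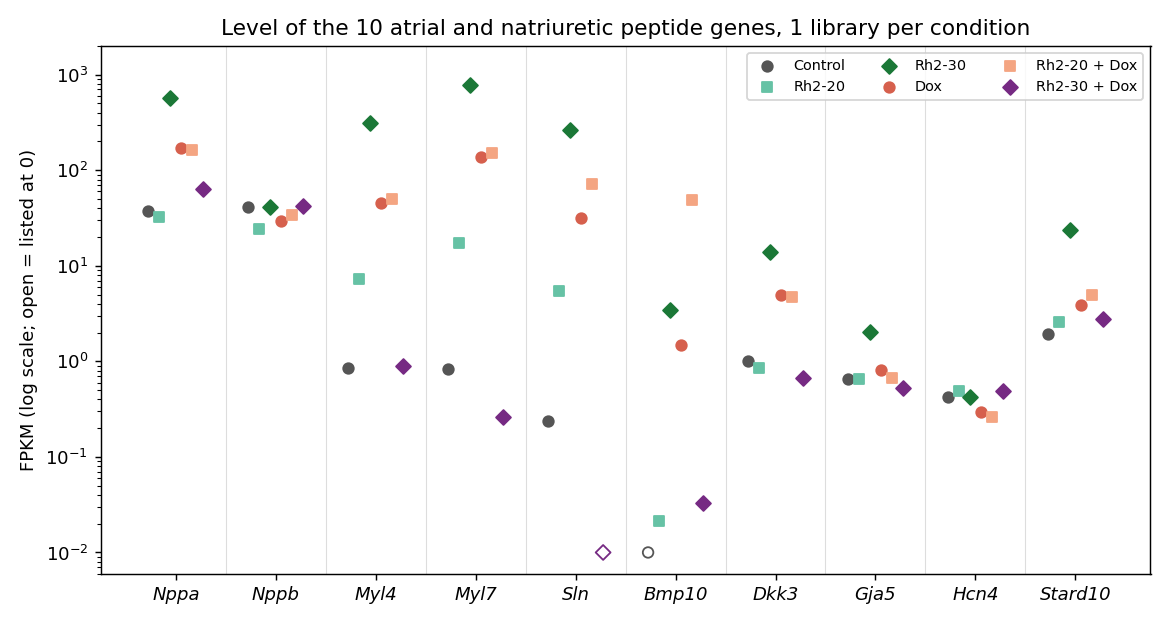
The level of each of the 10 members is plotted in FPKM on a log axis, with 1 point for each library and open symbols for genes listed at 0. The spread is widest in Myl7, Sln and Bmp10 and narrow in Nppb and Hcn4, and Rh2-30 is the highest library in 7 of the 10 genes.

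Per length, the hormone genes were near each other in Control, where Nppa made up 47.6% of the summed FPKM of the pair. Its share was 57.2% in Rh2-20 and 59.7% in Rh2-30 + Dox. In Rh2-20 + Dox it was 82.9%, in Dox 85.2% and in Rh2-30 93.2%. The share of Nppa was thus highest in the same 3 libraries that were high in atrial light chains.

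Myl7, the atrial regulatory light chain, spanned the widest range of any member counted in all 6 libraries. Its level was 0.840 FPKM in Control, 17.4 in Rh2-20, 775 in Rh2-30, 139 in Dox, 153 in Rh2-20 + Dox and 0.261 in Rh2-30 + Dox. The counts behind the lowest values were 56 in Control and 19 in Rh2-30 + Dox. Against Control, Myl7 was 162-fold higher in Dox, 172-fold in Rh2-20 + Dox, 19.6-fold in Rh2-20 and 830-fold in Rh2-30. It was 3.07-fold lower in Rh2-30 + Dox, a log2 ratio of -1.60 (dispersion interval -2.60 to -0.59).

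Myl4, the atrial essential light chain, was at 0.861 FPKM in Control, 7.34 in Rh2-20, 312 in Rh2-30, 45.7 in Dox, 49.9 in Rh2-20 + Dox and 0.886 in Rh2-30 + Dox. Its high and low libraries were those of Myl7. Sln encodes sarcolipin, a small inhibitor of the calcium pump of the sarcoplasmic reticulum. It had 14 counts in Control, 326 in Rh2-20, 15768 in Rh2-30, 1828 in Dox, 4393 in Rh2-20 + Dox and 0 in Rh2-30 + Dox. The last value allows up to 3 counts, by which Sln was at least 4.87-fold lower than in Control. In Dox it was 129-fold higher than in Control.

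The atrial members can be read beside their ventricular counterparts on the per-length scale. Myl7 was 0.0526% of the summed FPKM of Myl7 and Myl2 in Control and 0.0160% in Rh2-30 + Dox, the lowest 2 libraries. It was 1.18% in Rh2-20, 8.07% in Dox, 9.73% in Rh2-20 + Dox and 41.4% in Rh2-30. Myl4 was 8.90% of Myl4 and Myl3 in Dox and 48.0% in Rh2-30, close to the shares of Myl7. Sln was 10.1% of Sln and Pln (phospholamban) in Dox and 20.4% in Rh2-20 + Dox, a wider gap between these libraries than in the light chains. Sln reached 53.6% in Rh2-30 and was 0.0768% in Control. Irx4, a transcription factor of the ventricle, was 2.57-fold lower in Rh2-30 than in Control and was the only one of the 5 ventricular genes at least 2-fold from Control in any library. The ventricular gene Myl2 itself had between 84963 and 129279 counts, with the lowest value in Rh2-30, at a log2 ratio to Control of -0.69 (dispersion interval -1.37 to -0.02). In such bulk samples, fewer cells of a type and less RNA per cell cannot be told apart.

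**Figure D2:**
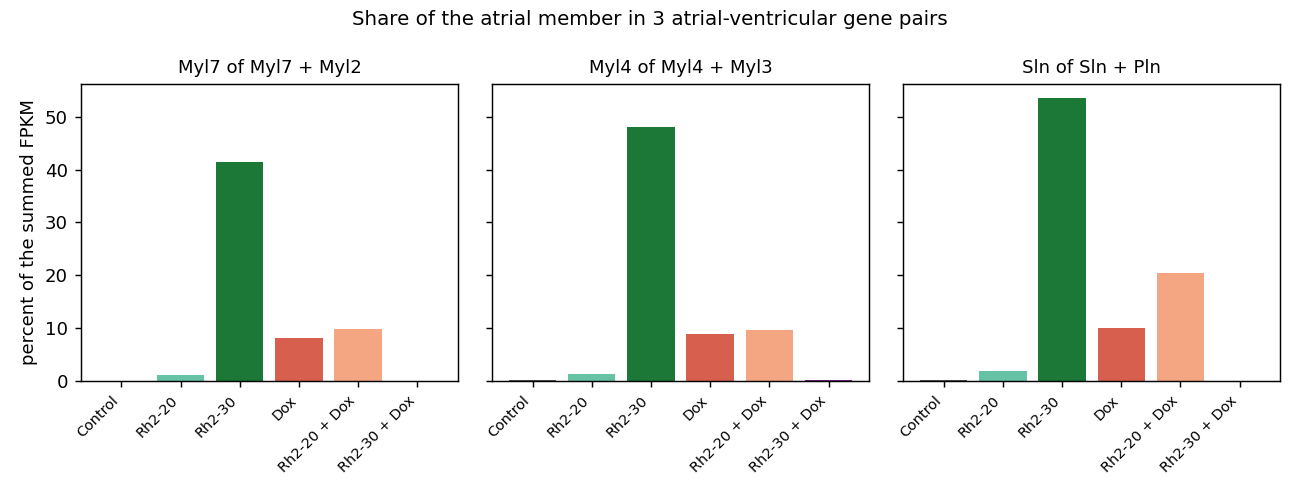
Bars give, for each library, the atrial gene as a percent of the summed FPKM of an atrial and ventricular pair (Myl7 with Myl2, Myl4 with Myl3, Sln with Pln). Rh2-30 is near or above 40% in each pair, Dox and Rh2-20 + Dox are between 8.07% and 20.4%, and the other 3 libraries are under 2%.

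Bmp10, a BMP ligand secreted by right atrial myocytes in the adult, had an order of its own. It had 0 counts in Control, 4 in Rh2-20, 534 in Rh2-30, 217 in Dox, 7644 in Rh2-20 + Dox and 6 in Rh2-30 + Dox. Only in this member was Rh2-20 + Dox the highest library, at 49.1 FPKM beside 3.48 in Rh2-30. Against Control, with its count of 0 taken as 3, Bmp10 was at least 2316-fold higher in Rh2-20 + Dox, at least 156-fold in Rh2-30 and at least 71.7-fold in Dox. It was 32.3-fold higher in Rh2-20 + Dox than in Dox, whereas Myl7, Myl4 and Nppa differed by at most 1.07-fold between these libraries.

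Dkk3, a secreted protein of the Dickkopf family with high levels in atrium, had 386 counts in Control, 335 in Rh2-20, 5499 in Rh2-30, 1894 in Dox, 1906 in Rh2-20 + Dox and 271 in Rh2-30 + Dox. It followed the order of Nppa in its high libraries but not in Rh2-30 + Dox, where Dkk3 was the lowest of the 6. Stard10, a lipid transfer protein, had 374 counts in Control, 512 in Rh2-20, 4729 in Rh2-30, 742 in Dox, 1010 in Rh2-20 + Dox and 557 in Rh2-30 + Dox. Its log2 ratio to Control was 3.47 in Rh2-30 (dispersion interval 2.78 to 4.16) and 0.97 in Dox (0.28 to 1.67). Stard10 is also a gene of epithelia, and the lung markers, among them Scgb1a1 of airway cells, summed to 14.0 FPKM in Rh2-30 and to 1.73 FPKM in Control. Scgb1a1 alone was at 13.5 FPKM in Rh2-30 and at 1.46 FPKM in Control. Sftpc, a gene of type II alveolar cells, was at 0 in all 6 libraries. Other alveolar genes of the list were not. Ager had 31 to 71 counts, with the most in Rh2-30, and Sftpa1 had 20 in Rh2-30 and 3 in Control. The log2 ratio of Ager in Rh2-30 to Control was 0.40 (dispersion interval -0.45 to 1.26).

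The conduction members moved little. Gja5, the connexin of atrium and His-Purkinje fibres, had 196 to 281 counts in 5 libraries and 733 in Rh2-30, where it was 2.80-fold above Control. Hcn4, the main pacemaker channel of the sinus node, had 311 counts in Control, 377 in Rh2-20, 323 in Rh2-30, 218 in Dox, 204 in Rh2-20 + Dox and 384 in Rh2-30 + Dox. The 2 libraries high in atrial light chains after Rh2-30 were thus the lowest in Hcn4, with log2 ratios to Control of -0.52 in Dox (dispersion interval -1.24 to 0.20) and -0.74 in Rh2-20 + Dox (-1.47 to -0.02). The ratio was -0.13 in Rh2-30. Of all genes, 8.48% were at least 2-fold higher in Rh2-30 than in Control. Of the 12 other node and conduction genes analysed, 5 were. Among them were Cntn2, a cell adhesion gene of Purkinje fibres (742 counts against 202), the sinus node factor gene Shox2 (89 against 19), Vsnl1 (48 against 0) and Isl1. Isl1, a factor of sinus node and cardiac neurons, had 36 counts in Rh2-30 and 25 in Dox and was at 0 in the other 4 libraries.

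Counted over the list, 8 of 10 members were at least 2-fold higher in Rh2-30 than in Control, where 8.48% of all genes were. In Dox 6 members were higher, against 5.44% of all genes, and in Rh2-20 + Dox 7, against 5.13%. In Rh2-20 there were 4, against 3.35%, of which Bmp10 rests on 4 counts and is at least 1.23-fold higher when measured from the floor of 3 counts. No member was at least 2-fold lower in these 4 comparisons, against 1.63%, 3.58%, 3.62% and 2.8% of all genes in the order given. In Rh2-30 + Dox, Myl7 and Sln were lower, against 6.85% of all genes. Bmp10 counted as higher there, against 4.08%, but it rests on 6 counts and is at least 1.92-fold higher from the floor. The median log2 ratio of the members to Control was 3.71 in Rh2-30, 2.22 in Dox, 2.12 in Rh2-20 + Dox, 0.25 in Rh2-20 and -0.08 in Rh2-30 + Dox. The 5 comparisons share the Control library. The medians of all genes lay between -0.01 and 0.03. As the members were chosen with these ratios known, the counts describe the list and support nothing further.

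The fat markers moved with the members in part. Among the 4 analysed, 4 were at least 2-fold above Control in Rh2-20, in Rh2-30 and in Rh2-20 + Dox, and 3 were in Dox. Of all genes, 3.35%, 8.48%, 5.13% and 5.44% were, in that order. Ucp1 rests on 8 counts in Rh2-20 and 11 in Rh2-20 + Dox, against 0 in Control. In Rh2-30 + Dox 3 fat markers were at least 2-fold lower, against 6.85% of all genes, and Ucp1 had 12 counts against 0. The summed FPKM of the list was lowest there, at 0.126, as was that of Myl7. The fat list was at 3.57 FPKM in Rh2-20 and 3.67 in Rh2-20 + Dox, while Myl7 was at 17.4 and 153 FPKM. In Dox the fat list was higher than in Rh2-20 + Dox, at 7.35 FPKM, and Myl7 was lower, at 139. The 5 mesothelium markers, genes of the outer lining of the heart, followed another order, at 4.42 summed FPKM in Control, 1.31 in Rh2-20, 11.3 in Rh2-30, 3.81 in Dox, 4.14 in Rh2-20 + Dox and 1.53 in Rh2-30 + Dox. The 6 great vessel and smooth muscle markers were between 73.8 and 145 FPKM, lowest in Rh2-30 + Dox and highest in Dox. The 5 ventricular genes were between 1667 FPKM in Rh2-30 and 2594 FPKM in Rh2-30 + Dox. Skeletal muscle markers stayed between 1.35 and 2.26 FPKM. The part of these tissues in the levels of the members was not tested, and with 1 library a condition the tissue content of a library and its treatment cannot be told apart.

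**Figure D3:**
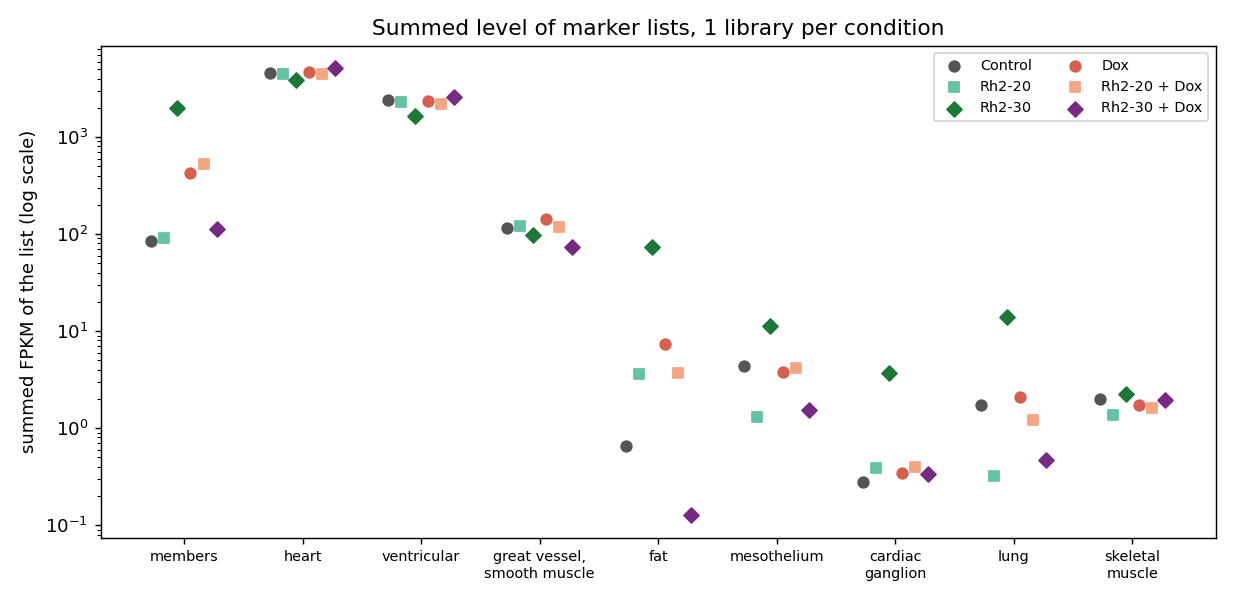
Summed FPKM on a log axis is plotted for the members and 8 marker lists, with 1 point for each library. The members span 84.3 to 2001 FPKM and the fat markers 0.126 to 73.1, with Rh2-30 highest in both, while heart, ventricular and great vessel lists stay within a narrow band.

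Other genes known for atrial expression moved as the members did in part. Of 15 such genes, 8 were at least 2-fold above Control in Rh2-30 and none below, and 3 were above in Dox and in Rh2-20 + Dox. Of all genes, 8.48% were above and 1.63% below in Rh2-30, and 5.44% were above in Dox and 5.13% in Rh2-20 + Dox. Mybphl, a myosin-binding protein of atrium and conduction system, had 14 counts in Control, 125 in Rh2-20, 8991 in Rh2-30, 994 in Dox, 984 in Rh2-20 + Dox and 21 in Rh2-30 + Dox. Its high and low libraries were those of Myl7, except that it was not below Control in Rh2-30 + Dox. Sbk2, a kinase gene of atrial muscle, had 112, 137, 1617, 315, 356 and 157 counts in the same order of libraries. Pam encodes the enzyme that amidates peptide hormones and is abundant in atrial granules, and it had 153449 counts in Rh2-30 and 50777 to 75810 elsewhere. Kcnj3, a subunit of the acetylcholine-gated potassium channel, had 9266 counts in Rh2-30 and 1644 to 3090 elsewhere, and Cacna2d2, a calcium channel subunit, had 1857 against 249 to 698. The potassium channel gene Kcna5 and the atrial transcription factor gene Hey1 were under 2-fold from Control in every library. Hey1 was nevertheless higher with Dox at each Rh2 dose, by log2 ratios of 0.77, 0.34 and 0.55 in rising order of dose, and was the only one of the 15 that DESeq2's Wald test called for Dox, while edgeR's quasi-likelihood test did not (adjusted p = 0.216).

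The rise of Nppa can be set beside that of Myl7 on the FPKM scale. In Dox, Nppa was 132 FPKM above Control and Myl7 138 FPKM above, a ratio of 0.955. In Rh2-20 + Dox the ratio of these differences was 0.835, and in Rh2-30 it was 0.683. The 3 libraries high in both genes thus gave between 0.683 and 0.955 FPKM of Nppa for each FPKM of Myl7. The difference of Nppb from Control was -11.7 FPKM in Dox, -7.12 FPKM in Rh2-20 + Dox and 0.319 FPKM in Rh2-30.

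The remaining libraries departed from this. In Rh2-20 Myl7 was 16.6 FPKM above Control, while Nppa differed from Control by -4.56 FPKM and Nppb by -16.5 FPKM. With Rh2-30 + Dox, Nppa was 25.9 FPKM above Control although Myl7 was lower, Myl4 had 106 counts against 128 and Sln had 0 against 14. The log2 ratio of Nppa to Control there was 0.77, with a dispersion interval of 0.09 to 1.45, and Nppb was 1.65 FPKM above Control. Nppa was thus 1.71-fold higher in the library with the least atrial light chain. This is close to the 0.67 on the log2 scale that a dispersion interval reaches to either side. That reach comes from 1 dispersion for all genes, and the SD of Nppa itself over the 6 libraries was 1.54 on this scale.

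**Figure D4:**
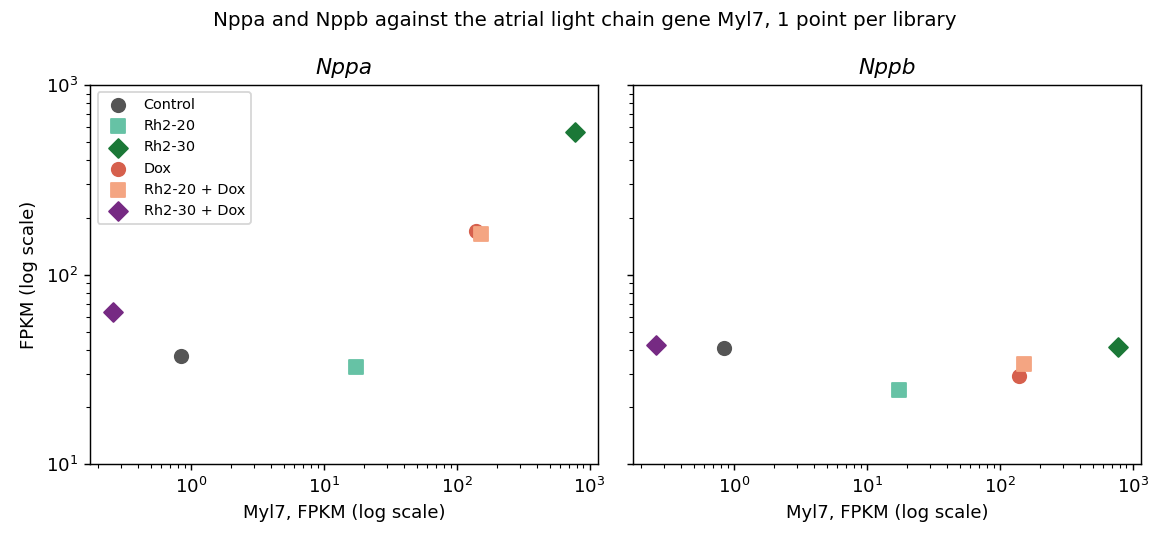
The level of Nppa (left) and of Nppb (right) is plotted against that of Myl7 in FPKM, on log axes, with 1 point for each library. Nppa is high in the 3 libraries in which Myl7 is above 100 FPKM and Nppb stays between 24.5 and 42.7 FPKM over the whole range of Myl7.

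Genes that rise in the stressed or overloaded ventricle were mostly under 2-fold from Control. Of 13 such genes besides Nppa and Nppb, none was at least 2-fold apart from Control in Dox or in Rh2-20. Of all genes, 5.44% were higher and 3.58% lower in Dox, and 3.35% and 2.8% in Rh2-20. With 13 genes, a count of 0 is close to these shares. In Dox the log2 ratios of the 13 ran from -0.73 to 0.95. Gdf15, a stress cytokine, was 2.36-fold higher in Rh2-20 + Dox, at 96 counts against 37. At Rh2-30, Timp1, an inhibitor of matrix proteases, was 2.22-fold higher and Cilp, a matrix protein of fibroblasts, 2.02-fold. Under Rh2-30 + Dox, Ltbp2, a matrix protein of fibrosis, was 2.64-fold lower. The median log2 ratio of the 13 was -0.05 in Dox, 0.03 in Rh2-20 + Dox, 0.03 in Rh2-30, -0.08 in Rh2-20 and -0.16 in Rh2-30 + Dox.

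Among the classical markers of this kind, Myh7, the slow myosin heavy chain that rises in hypertrophy, had 201564 counts in Control, 203792 in Rh2-20, 186695 in Rh2-30, 204073 in Dox, 224478 in Rh2-20 + Dox and 257187 in Rh2-30 + Dox. Its log2 ratios to Control were 0.01 in Dox (dispersion interval -0.67 to 0.68) and 0.29 in Rh2-30 + Dox (-0.38 to 0.97). Ankrd1, a stretch-responsive ankyrin repeat protein, had 80623 to 104974 counts, with the highest value in Rh2-30 + Dox, the library that was also highest in Nppb. Acta1, the skeletal actin of the fetal programme, had 42807 and 43715 counts in Control and Rh2-20 and 26915 to 28159 in the other 4 libraries. It was lowest in the 4 libraries that were the highest in Nppa, with log2 ratios of -0.66 in Dox (-1.34 to 0.01), -0.81 in Rh2-20 + Dox (-1.48 to -0.13), -0.70 in Rh2-30 + Dox (-1.38 to -0.03) and -0.79 in Rh2-30 (-1.47 to -0.12).

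**Figure D5:**
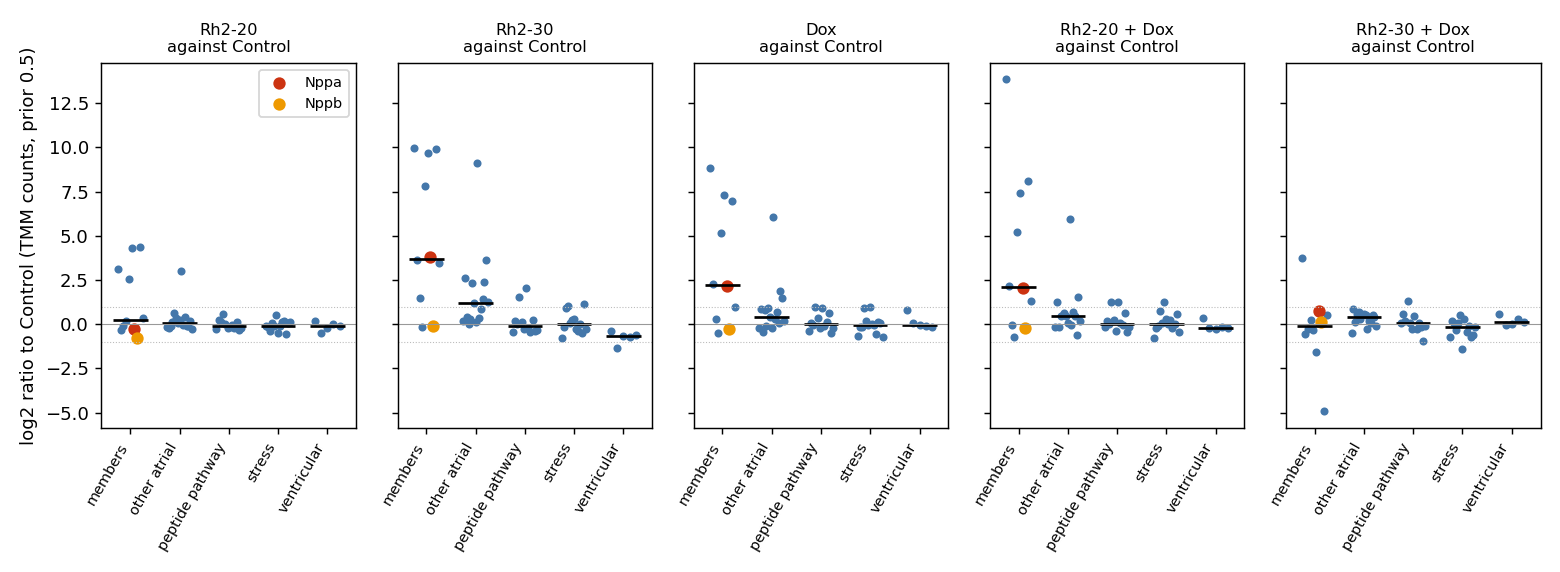
Each panel compares 1 library with Control and shows the log2 ratio of TMM-normalised counts for each gene of 5 lists, with a bar at the median of the list and dotted lines at 2-fold. Nppa (red) lies with the raised members in Rh2-30, Dox and Rh2-20 + Dox, Nppb (orange) stays within 2-fold in every panel, and the stress list has its median within 0.16 of 0 in each.

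The enzymes that process the hormones varied little. Corin, the protease that cleaves the precursor of ANP, had 38195 counts in Control, 33591 in Rh2-20, 31774 in Rh2-30, 29322 in Dox, 37424 in Rh2-20 + Dox and 42007 in Rh2-30 + Dox, and each ratio to Control has a dispersion interval that includes 0. Furin, which cleaves the precursor of BNP, had 5056 to 7776 counts. Npr1, the receptor of both hormones that makes cGMP, had 4687 to 6106. The clearance side differed more. Npr3, the clearance receptor, had 2147 counts in Control, 2069 in Rh2-20, 9985 in Rh2-30, 4041 in Dox, 5577 in Rh2-20 + Dox and 3140 in Rh2-30 + Dox. Its log2 ratio to Control was 2.03 in Rh2-30 (dispersion interval 1.35 to 2.71), 1.24 in Rh2-20 + Dox (0.56 to 1.92) and 0.90 in Dox (0.22 to 1.58). Mme, which encodes the peptidase neprilysin, was 2.90-fold above Control in Rh2-30, 2.51-fold in Rh2-30 + Dox and 2.40-fold in Rh2-20 + Dox. Of the 12 pathway genes analysed, 2 were at least 2-fold higher than Control in Rh2-30 and in Rh2-20 + Dox, 1 in Rh2-30 + Dox and 0 in Dox and in Rh2-20, with none at least 2-fold lower. Of all genes, 8.48%, 5.13%, 4.08%, 5.44% and 3.35% were higher in that order, and 1.63% to 6.85% were lower. With 12 genes, counts of 0 to 2 are close to these shares. Nppc and Ostn were at 9 counts or fewer.

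Likeness to Nppa was measured by Pearson's r of log2 normalised counts over the 6 libraries, for the 13960 genes whose mean reached 100 counts. The 5 genes most like it were Sbk3, a muscle kinase gene (r = 0.991), 1700037H04Rik (0.991), the potassium channel gene Kcnh7 (0.989), Npr3 (0.987) and Fam122b (0.987). The median r with Nppa was 0.79 for the other 9 members and 0.86 for 14 other atrial genes, and it was -0.13 for 12 stress genes and -0.72 for the 5 ventricular genes. Values of at least 0.9 were reached by 4 of the 14 atrial genes, by 0 of the 12 stress genes and by 1.89% of all 13960. Without the Rh2-30 library the medians were 0.66 for the members, 0.78 for the atrial genes, 0.19 for the stress genes and -0.14 for the ventricular genes, and 1 of the 14 atrial genes and 0 of the stress genes reached 0.9. The median of the stress genes thus changed sign with that library. Nppb had an r of 0.26 with Nppa, and the 5 genes most like Nppb were Hdac8 (0.979), Phf7 (0.958), Them4 (0.953), Tsen15 (0.950) and C77080 (0.948). Its median r was 0.03 with the other members and 0.12 with the other atrial genes. It was 0.14 with the ventricular genes and -0.12 with the stress genes, of which Ankrd1 had the highest, 0.67. Without the Rh2-30 library these medians were -0.10, 0.08, 0.62 and -0.20 in that order. Of the 12 stress genes, 1 then reached 0.9 with Nppb. It was Ccn2, a matrix-associated growth factor gene, which had an r of 0.996 over the other 5 libraries (rank 1 of 13960 genes) and 0.50 over all 6. Ankrd1 had an r of 0.76 and Myh7 of 0.77 over these 5 libraries. Over all 6 libraries, 0.122% of the 13960 genes and 0 of the stress genes reached 0.9 with Nppb. The share of all genes at 0.9 over the 5 libraries was not counted, for Nppa or for Nppb. Without the Rh2-30 library, none of either 5 was still among the 5 most like genes. These coefficients rest on 6 points that share their libraries, of which Rh2-30 is far from the rest in Nppa. All the lists, the atrial and stress lists included, were chosen with earlier results of these data known. The medians and counts therefore describe the lists only.

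With each Rh2 dose taken by itself, the log2 ratio of Dox over no Dox for Nppa was 2.16 without Rh2, 2.33 (dispersion interval 1.65 to 3.00) at 20 mg/kg and -3.01 (-3.68 to -2.33) at 30 mg/kg. Myl7 gave 7.32, 3.13 and -11.28 and Myl4 5.16, 2.66 and -8.13 in that order. At 30 mg/kg, where the library without Dox is the one rich in fat and ganglion markers, the direction was thus opposite to that at the other doses. For Nppb the ratios were -0.29, 0.57 and 0.23, each with an interval that includes 0. With Dox at Rh2 20 mg/kg, 6 members were at least 2-fold higher, against 4.09% of all genes, and 0 lower, against 2.87%. With Dox at Rh2 30 mg/kg, 8 were at least 2-fold lower, against 12.1% of all genes, and 0 higher, against 2.4%. The 8 were all members but Nppb and Hcn4.

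Addition of Rh2 to Dox showed the same split between doses. Between Rh2-20 + Dox and Dox, 2 members were at least 2-fold higher, Bmp10 and Sln (2.20-fold), against 3.08% of all genes, and none was lower, against 3.44%. Between Rh2-30 + Dox and Dox, 6 members were at least 2-fold lower, against 7.35% of all genes, and none was higher, against 2.76%. Nppa was 2.61-fold lower there (log2 ratio -1.39, dispersion interval -2.06 to -0.71), Myl7 497-fold and Myl4 45.3-fold, and Nppb was 1.34-fold higher (0.42, -0.26 to 1.09). Neither comparison uses the Rh2-30 library.

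When the 3 libraries with Dox were set against the 3 without in edgeR's quasi-likelihood test, 0.0273% of all genes passed an adjusted p of 0.05 (Benjamini-Hochberg). Of all 18328 genes, 1852 had an unadjusted p under 0.05 in this test and 423 were called by DESeq2's Wald test. Of the 10 members, 0 passed the adjusted threshold, 0 had an unadjusted p under 0.05 and 0 were called by DESeq2. With 10 genes, counts of 0 are close to these shares. As the members were selected on these libraries, these counts describe them and nothing is read from them. No member had libraries with Dox all above or all below those without, which 17% of all genes had. The log2 difference of Nppa was -0.59 in this fit and 1.92 without the Rh2-30 library. For Nppb it was 0.14, and 0.29 or less with any 1 library left out. Among the 13 stress genes, 0 passed the adjusted threshold and 1 had an unadjusted p under 0.05, which 1852 of all 18328 genes had. DESeq2 called none of them.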

How the data were processed

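RNA of 6 heart libraries was quantified by the authors, 1 library for each condition, matched to its condition by its label. The reads were trimmed (Trimmomatic), aligned to mm10 with HISAT2 2.1.0 and assembled and counted with StringTie 2.1.3b, per the submitters' processing notes and the study's methods. SureSelect RNA capture was used for the libraries, and whether counting used strand is not given in the sources used here. The deposited counts were whole numbers per gene without normalization. The deposited FPKM values, per kilobase of transcript and scaled to mapped fragments, served for levels between genes and as alternatives, and the deposited TPM values were not used.

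Genes whose mean reached 10 counts were analysed in R 4.3.3 with TMM factors from edgeR 4.0.16. Single libraries were compared by log2 ratios of TMM-normalised counts with a prior count of 0.5 and no p-value. Dispersion intervals (95%) add to counting error a common dispersion of 0.0285, estimated from the 6 libraries as 1 group. A count of 0 was taken as up to 3 counts, a limit that covers counting error alone. The 3 libraries with Dox were compared with the 3 without by edgeR's quasi-likelihood test, two-sided, after a test on simulated data, with DESeq2 1.42.0 as an alternative. p-values there measure the spread between pooled libraries that differ in Rh2 dose.

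The members and all gene lists were chosen with earlier results of these data known. Named from other lists were genes at least 2-fold from Control in any comparison or called, at most 6 a list, besides Corin, Furin, Npr1, Npr3, Myh7, Acta1, Ankrd1 and Myl2, and the 5 genes most like Nppa and Nppb. Genes named outside this rule (Sftpc, Ager, Kcna5, Hey1, Ccn2, Nppc, Ostn, Gata4 and Gata6) were chosen after their values were seen. Positions and promoters are those of RefSeq on GRCm38.p6. Alternatives were DESeq2's size factors, no filter, Rh2 dose as a term, FPKM plus 1 or plus 0.1, a prior count of 2 and each library left out. The values of some genes of the lists are not reported here.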

Additional observations from a re-analysis of the deposited data

Results flagged for a closer look

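The ratio of Dox over no Dox went one way without Rh2 and the opposite way at Rh2 30 mg/kg in 6 of the 10 members, each ratio being at least 2-fold. The difference between both log2 ratios, that at 30 mg/kg minus that without Rh2, was -5.16 for Nppa, -6.50 for Dkk3, -13.29 for Myl4 and -18.61 for Myl7. For Bmp10 and Sln, where a count of 0 was taken as 3, it was -12.51 and -19.25 or further from 0. Each ratio compares 1 library with 1 library, and the difference between the ratios was not tested. The fat markers moved alongside, from 0.651 summed FPKM in Control to 7.35 in Dox and from 73.1 in Rh2-30 to 0.126 in Rh2-30 + Dox. At Rh2 20 mg/kg they were at 3.57 without Dox and at 3.67 with it. The part of the fat markers in these differences was not tested.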

How the results depend on the processing

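No difference between single conditions has a replicate check, and Rh2 dose varies within the 3 libraries that had Dox and within the 3 that had none. The labels carry no replicate numbers, and libraries with and without Dox were paired by Rh2 dose alone, in the fit with Rh2 dose as a term. With Dox against without, 5 of 18328 genes were called, 0 with Rh2 dose as a term and 423 by DESeq2's Wald test. Leaving out 1 library gave 0 to 14 calls, with 3 without Rh2-30, 14 without Rh2-30 + Dox and 0 without any other. The fits with 0 calls had 1475 to 1626 genes at an unadjusted p under 0.05. With Rh2 dose as a term the log2 difference turned to 0.88 in Nppa, 0.85 in Dkk3, 1.96 in Myl4, 2.76 in Myl7 and 2.87 in Sln. With 1 library left out it ranged from -1.08 to 1.92 in Nppa, -0.060 to 0.29 in Nppb, -2.21 to 2.84 in Myl4, -1.93 to 3.43 in Myl7, -2.38 to 3.61 in Sln, -0.52 to 10.20 in Bmp10, -1.003 to 1.897 in Dkk3, -0.91 to 0.051 in Gja5 and -1.67 to 0.79 in Stard10. Except in Nppb and Bmp10, the value that turned was the one without Rh2-30. In Bmp10 it was the one without Rh2-20 + Dox, and in Nppb those without Rh2-20 and without Rh2-30 + Dox. The cause was not tested. The members at least 2-fold from Control in Rh2-30 + Dox numbered 3, and 0 with FPKM plus 1, which shrinks ratios of low levels. Of the 5 genes most like Nppa, 0 were shared with FPKM plus 1 and 0 without the Rh2-30 library, and for Nppb likewise 0 and 0. The last alternative was chosen after seeing the data. Of 360 log2 ratios of a member between single libraries under the alternatives, 90 moved and 270 stayed the same. Ratios near 0 could still change sign on the FPKM scale. That of Nppb in Rh2-30 to Control was -0.11 on counts, while its FPKM was 41.3 against 41.0.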
